A study of Mus musculus with 12 samples.

Results

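The genes described here are the histone genes of the 4 Hist clusters, taken as every gene in the deposited tables whose symbol starts with Hist1h, Hist2h, Hist3h or Hist4h. The rule found 65 of 33641 genes, of which 53 are Hist1 genes on chromosome 13, 8 are Hist2 genes on chromosome 3, 3 are Hist3 genes on chromosome 11 and 1 is the Hist4 gene on chromosome 6. By product they are 6 H1, 17 H2A, 18 H2B, 11 H3 and 13 H4 genes. The files list 63 of them as protein-coding and the other 2, Hist3h2bb-ps and Hist1h2aj, as pseudogenes. A further 5 symbols of the GENCODE M21 annotation that meet the rule, Hist1h2aa, Hist1h2ah, Hist1h2ba, Hist2h2aa1 and Hist2h3c1, are not analysed here.

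The libraries were RNA sequencing libraries from total RNA of mouse peritoneal macrophages taken at day 0 without treatment. There were 3 libraries each of SAMHD1 MDA5 DKO (both genes knocked out), SAMHD1 KO, MDA5 KO and WT. The labels name neither the strain, age or sex of the animals nor the knockout alleles. Nor do they give the animal behind each library, so p-values measure the spread between libraries, which may be technical. The series title concerns activation of MDA5, an RNA sensor encoded by Ifih1, when SAMHD1, an enzyme that breaks down deoxynucleotides, is missing. The comparisons below ask whether histone gene levels differed between these genotypes and how far the read numbers could show it.

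Most genes of these clusters are replication-dependent: a dividing cell transcribes them in S phase to package new DNA. Their messages are not normally polyadenylated. They end just after a conserved stem-loop, which is bound by the stem-loop binding protein SLBP and is cut without addition of a poly(A) tail. Some members are known also to give polyadenylated messages, which persist in cells that have stopped dividing, among them the linker histone gene Hist1h1c and the H2B genes Hist1h2bc and Hist2h2be. Resident peritoneal macrophages divide rarely. The labels used here do not say whether polyadenylated RNA was selected or ribosomal RNA was removed.

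The stem-loop is the sequence by which these messages are recognised, so its forms in 5 members described below are shown first. It was searched in GENCODE M21 transcripts by its conserved bases, with a stem of 6 base pairs and a loop of 4 bases. It was present in 42 of the 63 members matched by identifier, against 0.223% of 141767 transcripts of all genes. In the lines below, with positions on GRCm38 and read 5′ to 3′ on the strand of the gene, capitals mark the stem and lower case the loop.
Hist1h1c (chr13:23739512-23739527, plus strand): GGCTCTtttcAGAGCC
Hist1h2ao (chr13:21810898-21810913, plus strand): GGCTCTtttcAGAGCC
Hist1h4i (chr13:22040966-22040981, minus strand): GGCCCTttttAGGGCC
Hist1h4c (chr13:23698089-23698104, minus strand): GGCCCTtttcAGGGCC
Hist2h2ac (chr3:96220418-96220433, minus strand): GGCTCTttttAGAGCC
The form of Hist1h1c and Hist1h2ao was the most frequent and was found in 22 members. The form of Hist1h4c was found in 7 members, that of Hist1h4i in 2, and that of Hist2h2ac in 1.

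The members differed in how far the gene model of the files ran on past the stem-loop, and few of the reads lay in models found to stop just after it. In 28 members the model ended within 100 bases after the stem-loop. These 28 held 9.13% of the normalised reads of all members, with a median of 8.51 normalised reads per kb of gene length. In 13 members the model ran on for more than 100 bases. These 13 held 41.6% of the reads, and among them were Hist1h1c with 840 bases after the stem-loop, Hist3h2a with 1643, Hist1h4i with 330 and Hist1h2be with 1789. In 21 members no stem-loop of this form was found in the annotated transcripts. Several of these transcripts are short, such as Hist1h4k with 312 bases and Hist1h2bn with 381. A stem-loop past their annotated end would be missed, so these genes need not lack it. The 21 held 49.2% of the reads, nearly all of them in Hist1h2bc and Hist2h2be. Hist1h2bc has 1 annotated transcript, of 2 exons, and a stem-loop outside these exons would be missed too. The median was 5.49 normalised reads per kb in the 13 members and 3.95 in the 21. These medians run opposite to the shares, which came from a few much read genes. The remaining 3 members were 1 whose model ended before the stem-loop and 2 that could not be matched by identifier. Reads were counted on the models of the files, and 17 members are longer in GENCODE M21, Hist1h2ac by 2006 bases.

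Few members were read often. The mean number of reads per library was under 1 for 14 members, from 1 to under 10 for 39, from 10 to under 100 for 7 and at least 100 for 5, with a median of 2.75. Only 10 members had a read in all 12 libraries, and 28 had one in 6 libraries or fewer. The filter on low values, 10 reads in the median library (a CPM of 0.228) in at least 3 libraries, was passed by 21 members, that is 32.3%, against 45.0% of all genes. The other 44 members were not tested. By class, 3 of 6 H1, 6 of 17 H2A, 5 of 18 H2B, 2 of 11 H3 and 5 of 13 H4 genes were tested. A count of 0 in a library allows up to 3 reads, which is 2.09 to 4.05 normalised reads depending on the library and covers counting error only. Differences within this limit were not detectable at this depth.

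The reads of the family were concentrated in 5 members, which together took 85.8% of them. Per kb of gene length the order was Hist1h2bc with 788 normalised reads per kb, Hist1h1c with 440, Hist2h2be with 223 and Hist1h4i with 157. Hist1h2ae followed with 68.8, Hist1h2ap with 66.1, Hist1h2bg with 65.2 and Hist3h2a with 59.0. Hist1h2bc and Hist2h2be encode H2B, Hist1h1c encodes the linker histone H1.2, Hist1h4i encodes H4 and Hist3h2a encodes H2A. The 11 H3 genes together took 1.45% of member reads, and the highest of them per kb, Hist1h3d, had 13.4 normalised reads per kb.

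**Figure D1:**
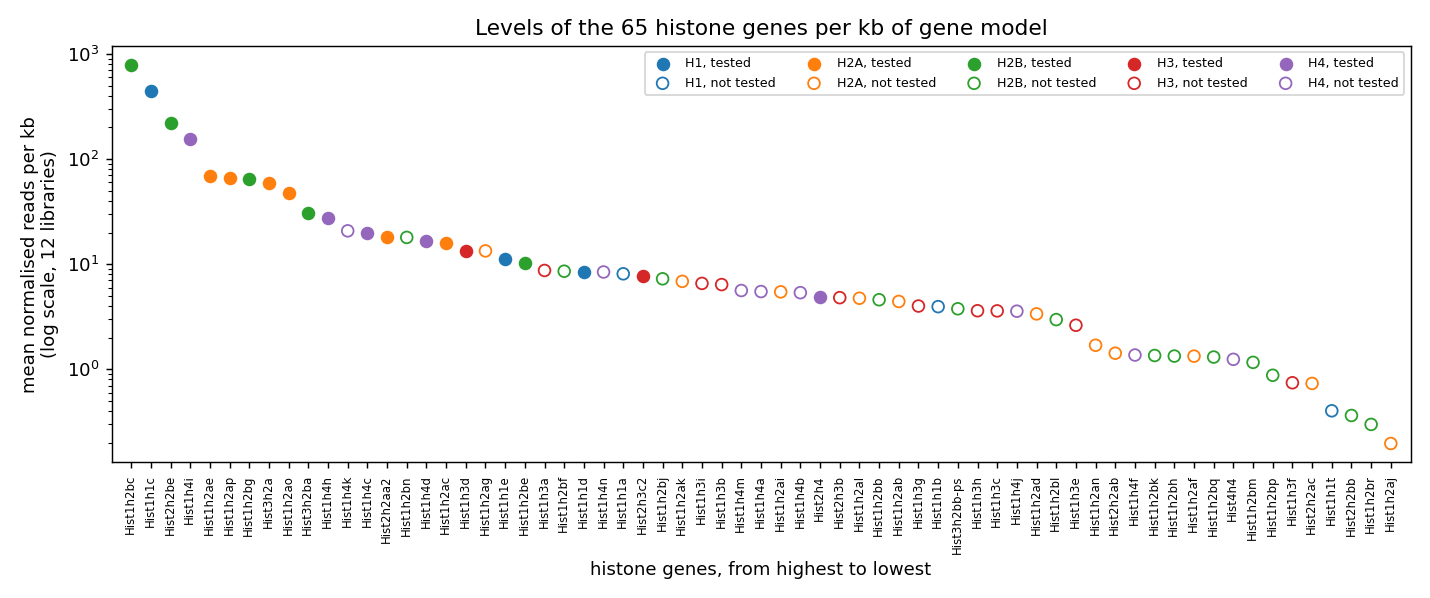
Mean normalised reads per kb of gene length over the 12 libraries, on a log scale, for each of the 65 histone genes from highest to lowest, coloured by class and filled where the gene passed the filter on low values. Hist1h2bc at 788 and Hist1h1c at 440 lie far above the rest, and the highest open point is Hist1h4k at 20.8 normalised reads per kb.

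The next members of each class were read far less often and varied between libraries of 1 genotype. Hist1h1e, which encodes the linker histone H1.4, had 13.2, 7.93 and 8.78 normalised reads in the SAMHD1 MDA5 DKO libraries, 3.33, 6.89 and 6.11 in those of SAMHD1 KO, 5.13, 3.75 and 13.8 in those of MDA5 KO and 0, 8.22 and 24.3 in those of WT. The WT libraries thus held both the lowest and the highest value. Hist1h2ae, an H2A gene, had 13.9, 27.3 and 10.7 in the SAMHD1 MDA5 DKO libraries, 19.96, 50.5 and 40.4 in those of SAMHD1 KO, 15.4, 34.97 and 33.9 in those of MDA5 KO and 22.3, 9.24 and 101 in those of WT. Hist1h4h, an H4 gene, had 2.79, 8.81 and 3.90 in the SAMHD1 MDA5 DKO libraries, 11.6, 21.8 and 2.45 in those of SAMHD1 KO, 11.97, 3.75 and 11.9 in those of MDA5 KO and 0, 17.5 and 59.5 in those of WT. Hist1h2ae and Hist1h4h were both highest in WT 3.

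Hist1h2be, an H2B gene, had 68.3, 52.9 and 7.80 normalised reads in the SAMHD1 MDA5 DKO libraries, 46.6, 97.6 and 63.6 in those of SAMHD1 KO, 71.8, 21.2 and 32.1 in those of MDA5 KO and 13.02, 39.0 and 27.0 in those of WT. Every SAMHD1 KO library lay above every WT library, while the other genotypes overlapped WT. Hist1h3d, an H3 gene, had 11.1, 6.17 and 0 in the SAMHD1 MDA5 DKO libraries, 7.48, 9.18 and 9.78 in those of SAMHD1 KO, 8.55, 0 and 10.1 in those of MDA5 KO and 7.44, 0 and 20.3 in those of WT. Hist1h3a, also an H3 gene, was not tested and had its highest value, 27.0, in WT 3 and 0 in both other WT libraries.

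The members that are known for expression outside S phase or in testis were read at very different levels. Hist1h1t, the testis linker histone gene, had 4 reads in SAMHD1 MDA5 DKO 2 and 0 in the other 11 libraries. Hist4h4 had 0 to 14 reads per library, and the pseudogene Hist3h2bb-ps had 0 to 8. Hist3h2ba, an H2B gene beside Hist3h2a, had a mean of 18.9 normalised reads.

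Genes that face each other across a shared promoter differed widely in reads. Hist1h2ac and Hist1h2bc are divergent H2A and H2B genes on chromosome 13, and Hist2h2ac and Hist2h2be are such a pair on chromosome 3. Their shared windows are shown because the same sequence lay before a much read and a little read gene. They are the RefSeq promoter windows of the H2A genes on GRCm38.p6, minus strand, 5′ to 3′, and reach into the start of the H2B gene. Capitals mark the octamer ATTTGCAT, CCAAT and TATAAA on either strand, and none of these matches overlap.
Hist1h2ac (chr13:23683910-23684209, minus strand): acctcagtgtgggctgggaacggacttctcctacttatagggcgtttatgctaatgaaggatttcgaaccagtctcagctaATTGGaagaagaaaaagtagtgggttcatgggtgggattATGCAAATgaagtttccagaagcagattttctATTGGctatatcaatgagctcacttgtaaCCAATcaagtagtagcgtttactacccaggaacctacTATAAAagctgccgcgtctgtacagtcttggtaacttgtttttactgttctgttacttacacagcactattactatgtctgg
Hist2h2ac (chr3:96220831-96221130, minus strand): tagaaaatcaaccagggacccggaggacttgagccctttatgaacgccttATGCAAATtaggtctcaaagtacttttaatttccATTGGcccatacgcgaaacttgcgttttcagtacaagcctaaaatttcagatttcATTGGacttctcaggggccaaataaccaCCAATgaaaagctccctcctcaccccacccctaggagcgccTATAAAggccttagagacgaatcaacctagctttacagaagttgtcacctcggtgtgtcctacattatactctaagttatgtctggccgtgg
Both windows held 1 octamer, 3 CCAAT and 1 TATAAA match. Per kb of gene length Hist1h2ac had 15.8 normalised reads and its partner Hist1h2bc had 788. Hist2h2ac had 0.734 normalised reads per kb and its partner Hist2h2be had 223. The share of 31-base windows found in no other gene was 47.3% for Hist2h2ac and 97.2% for Hist2h2be. It was 83.2% for Hist1h2ac and 67.4% for Hist1h2bc. In both pairs the H2A gene has the stem-loop and a model that ends within 100 bases after it, and in both none was found in the annotated H2B transcript.

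Over the 56 members with a RefSeq promoter window, the octamer was in 17.9%, against 1.75% of 27025 promoters of the same length. It was found in 5 of 14 H2A and 5 of 15 H2B windows and in 0 of the 27 H1, H3 and H4 windows. CCAAT was in 83.9% of the members' windows, against 37.9% of all promoters, and TATAAA in 55.4%, against 14.2%. These are matches of letters only, and divergent pairs share part of their windows.

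Several libraries stand apart in ways that bear on the histone genes. Totals were 33234361 to 58345425 reads per library. All 9 macrophage markers with a single row in the tables (Adgre1, Cd68, Csf1r, Lyz2, Gata6, Timd4, Icam2, Fcna and Selp) were read in every library. Samhd1 had 1747 to 4960 normalised reads in the 6 SAMHD1 MDA5 DKO and SAMHD1 KO libraries, against 7067 to 17462 in the 6 MDA5 KO and WT libraries. Ifih1 had 0 to 41.9 normalised reads in the libraries labelled SAMHD1 MDA5 DKO and MDA5 KO, against 816 to 3745 in the others. WT 3 gave the lowest value for both genes among the libraries that carry them. SAMHD1 KO 2 and SAMHD1 KO 3 were closer to each other than any other 2 libraries of 1 genotype. Their mean chi-square per gene was 6.80 over 13870 genes, against 54.4 to 813 in the other 11 pairs, where sampling noise alone gives about 1. The highest values, 813 and 737, were those of WT 3 with WT 1 and with WT 2, while WT 1 with WT 2 gave 62.3. WT 3 thus stood apart over all genes and not only in the histone genes. The labels do not say whether SAMHD1 KO 2 and SAMHD1 KO 3 come from 1 animal. If they do, every comparison with SAMHD1 KO, and the interaction, counts 1 animal as 2 libraries, and standard errors and p-values may be too small. Fits that leave out SAMHD1 KO 1 rest on this pair alone, so the same holds for them.

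**Figure D2:**
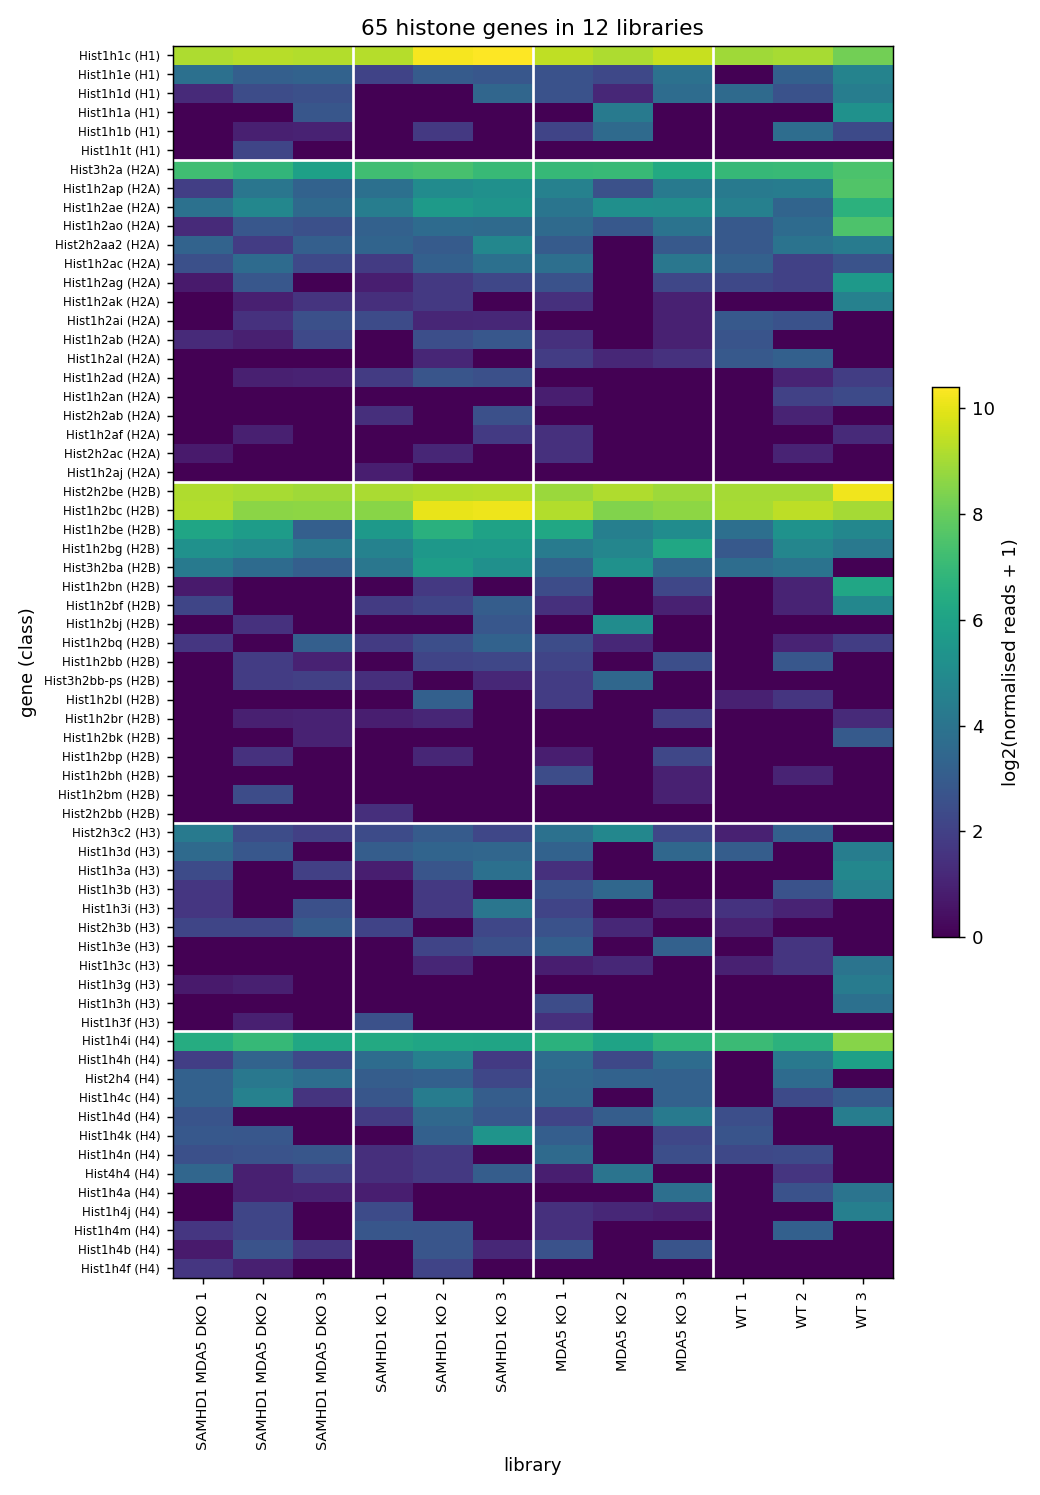
log2(normalised reads + 1) of the 65 histone genes (rows, grouped by class and ordered by mean within it) in the 12 libraries (columns, 3 per genotype, SAMHD1 MDA5 DKO at the left and WT at the right). The rows of the 5 most read genes stay bright in all columns, while most others are dark in most libraries and the WT 3 column is the brightest for 25 of 65 genes. The share of all genes that were highest in WT 3 was not counted.

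The summed level of the 5 most read members was highest in SAMHD1 KO 2 and 3. It was 1948, 1775 and 1599 normalised reads in SAMHD1 MDA5 DKO libraries 1, 2 and 3. In SAMHD1 KO it came to 1747, 3122 and 3278, and in MDA5 KO to 1954, 1669 and 1779. The WT libraries had 1791, 1939 and 2490. SAMHD1 KO 1 thus lay below all 3 WT libraries while the other 2 SAMHD1 KO libraries lay above them, so these genotypes overlap.

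The other 60 members gave a different order, led by 1 WT library. They summed to 272, 293 and 163 normalised reads in SAMHD1 MDA5 DKO. They summed to 226, 475 and 462 in SAMHD1 KO and to 337, 287 and 354 in MDA5 KO. They summed to 154, 269 and 1054 in WT. WT 3 held more than any other library, and WT 1 held the least of all 12. The genotype means were 243 ± 69.8 in SAMHD1 MDA5 DKO, 388 ± 140 in SAMHD1 KO, 326 ± 34.7 in MDA5 KO and 492 ± 490 in WT (SD, n = 3 each), so that the spread within WT exceeded every difference between genotypes.

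In WT 3, where the little-read members were high, genes of DNA synthesis were high as well. The mean log2 level of 30 S phase and cell cycle genes was 10.3 in WT 3, against 6.24 to 9.21 in the other 11 libraries. Pcna, the replication clamp, had 6621 normalised reads in WT 3, against 1401 to 2334 elsewhere. Slbp, which binds the stem-loop, had 2511 in WT 3, against 881 to 1341 elsewhere. Mki67, a marker of cycling cells, had 672 there, within the 279 to 2350 of the others. Among the 9 macrophage markers, which summed to 673600 in WT 3 against 1911100 to 5308400 elsewhere, Lyz2 had 215980 in WT 3 against 1457300 to 4930200 elsewhere. The other 8 summed to 457616 in WT 3, within the 371590 to 491256 of the other libraries, and of these Adgre1 and Icam2 were highest and Fcna, Gata6 and Selp lowest in WT 3. These high values were seen together in WT 3 only, and the other libraries did not keep the same order. SAMHD1 KO 1 had the lowest S phase mean, 6.24, and 226 normalised reads in the 60 little-read members, where WT 1 had 8.13 and 154. The part of the S phase and marker values in the result was not tested.

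**Figure D3:**
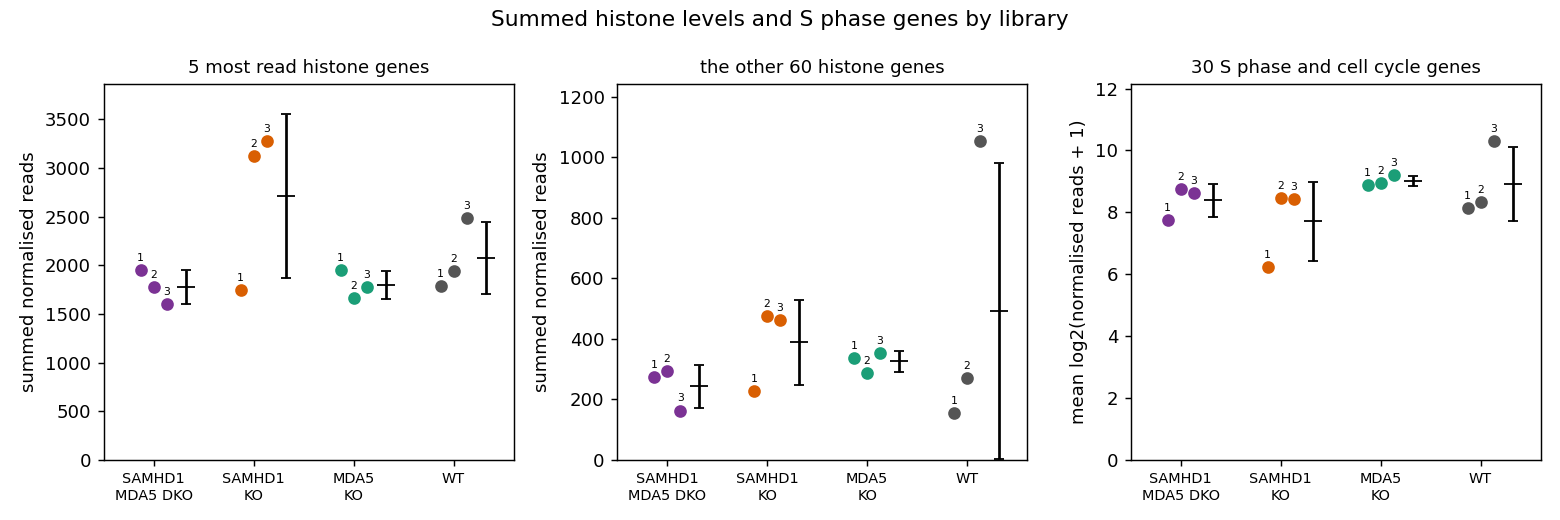
Summed normalised reads of the 5 most read histone genes (left) and of the other 60 (middle), and the mean log2(normalised reads + 1) of 30 S phase and cell cycle genes (right). Points are libraries with their number, bars are the mean ± SD of 3 libraries, and genotypes run from SAMHD1 MDA5 DKO to WT. SAMHD1 KO 2 and 3 lead at the left with 3122 and 3278, and WT 3 leads in the middle with 1054 and at the right with 10.3.

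The number of members detected did not follow genotype. A read was found for 38, 45 and 37 members in SAMHD1 MDA5 DKO, for 39, 46 and 39 in SAMHD1 KO, for 51, 28 and 40 in MDA5 KO and for 27, 41 and 37 in WT. MDA5 KO thus held the library with the most members and one of the 2 with the fewest. At 10 reads the order changed, with 28 members in WT 3 and 8 to 18 in the other 11 libraries. In MDA5 KO 2, which had 28 members with a read, 800 of 1038 Olfr genes were read at least once, while the other 11 libraries had 107 to 194 of them. Olfr genes encode olfactory receptors, which macrophages do not use, and the part of such reads in the histone values was not tested.

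SAMHD1 KO against WT asks for the effect of SAMHD1 loss with MDA5 present. Hist1h1c had 599, 1239 and 1354 normalised reads in SAMHD1 KO, against 489, 531 and 295 in WT. All 3 SAMHD1 KO libraries lay above all 3 WT libraries, SAMHD1 KO 1 by the smallest margin, and WT 3 was the lowest of all 12 libraries. The log2 difference was 1.24 ± 0.31 (SE), with an adjusted p of 0.312 in limma, and so did not pass. Without SAMHD1 KO 1 it was 1.61 ± 0.26, without SAMHD1 KO 3 it was 1.02 ± 0.34, and without WT 3 it was 0.97 ± 0.29. The fit without SAMHD1 KO 1 keeps only SAMHD1 KO 2 and 3, the closest pair, so its standard error may be too small. The authors' deposited table gives Hist1h1c a log2 fold change of 1.06 with an adjusted p of 0.0622.

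Hist1h4i, the most read H4 gene, ran the other way. It had 79.0, 68.9 and 67.3 normalised reads in SAMHD1 KO, against 136, 101 and 363 in WT. No SAMHD1 KO library reached any WT library, and WT 3 was by far the highest. The log2 difference was -1.24 ± 0.44 with an adjusted p of 0.312 in limma, and it was -0.70 ± 0.35 without WT 3. Hist3h2ba had 16.6, 53.9 and 36.7 normalised reads in SAMHD1 KO, against 12.1, 14.4 and 0 in WT. Its log2 difference was 2.501 ± 0.99 with an adjusted p of 0.315 in limma, and 1.23 ± 0.73 without WT 3. Hist2h2be overlapped, with 545, 596 and 604 normalised reads in SAMHD1 KO, against 517, 514 and 1150 in WT. Hist1h2bc overlapped as well, with 375, 1053 and 1124 in SAMHD1 KO, against 525, 665 and 509 in WT.

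Of the 21 tested members, 0 passed in SAMHD1 KO against WT in limma with Benjamini-Hochberg adjustment over 15130 genes, of which 0% passed. At an unadjusted p under 0.05 there were 4 members, against 15.4% of all genes tested. The authors' deposited table called none of its 63 listed members at an adjusted p under 0.05, against 0.606% of its genes. The groups did not overlap for 3 members that were higher in SAMHD1 KO (Hist1h1c, Hist1h2be and Hist3h2ba), against 12.3% of all genes tested, and for Hist1h4i, which was lower, against 7.85%. The median log2 difference of the 21 was 0.30, beside 0.03 over all genes tested. Without WT 3 it was 0.97, with 19 members higher and 2 lower. Over all libraries 14 were higher and 7 lower. The median was 0.86 without SAMHD1 KO 1, 0.18 without either of the other SAMHD1 KO libraries and 0.10 without WT 2.

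**Figure D4:**
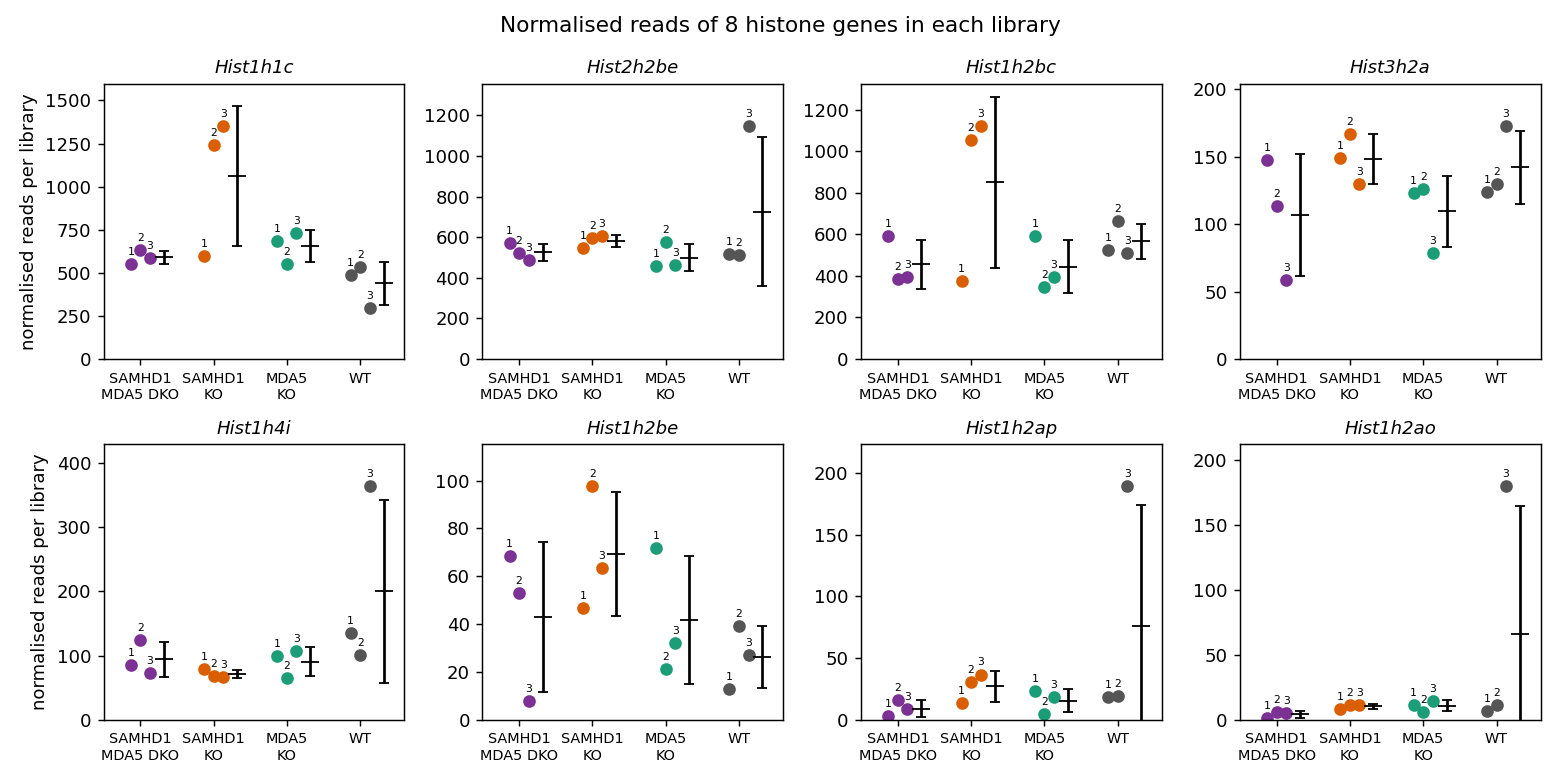
Normalised reads of 8 histone genes in each library, on linear axes from 0. Points are libraries with their number, bars are the mean ± SD of 3 libraries (cut at 0 for Hist1h2ap and Hist1h2ao in WT), and genotypes run from SAMHD1 MDA5 DKO to WT. Hist1h1c and Hist1h2bc are highest in SAMHD1 KO 2 and 3, while Hist2h2be, Hist1h4i, Hist1h2ap and Hist1h2ao are highest in WT 3.

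MDA5 KO against WT asks for the effect of MDA5 loss with SAMHD1 present. The members with the smallest p were little read. Hist2h4, an H4 gene on chromosome 3, had 10.3, 8.74 and 8.26 normalised reads in MDA5 KO, against 0, 11.3 and 0 in WT. The groups overlapped because of WT 2, and the log2 difference was 2.12 ± 0.94 with an adjusted p of 0.211 in limma. It was 3.33 without WT 2 and 1.52 ± 0.96 without WT 3. Hist2h3c2, an H3 gene, had 13.7, 27.5 and 3.67 in MDA5 KO, against 0.930, 8.22 and 0 in WT, with a log2 difference of 2.26 ± 1.01 and an adjusted p of 0.215 in limma. Without WT 3 this difference was 1.57 ± 1.04. Hist1h1c had 682, 553 and 732 in MDA5 KO, all above the WT libraries, with a log2 difference of 0.62 ± 0.31 that was 0.35 ± 0.29 without WT 3.

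In MDA5 KO against WT, 0 of 21 members passed in limma, against 0.00661% of all genes tested. There were 2 members at an unadjusted p under 0.05, against 22.4% of all genes tested. The authors' deposited table called none of its 61 listed members, against 2.17% of its genes. Non-overlapping groups were found for Hist1h1c, which was higher in MDA5 KO, against 13.9% of all genes, and for 0 members that were lower, against 14.2%. Of the 21, 9 had a higher and 12 a lower mean log2 level in MDA5 KO, and the median difference was -0.08 beside 0.08 over all genes tested. Without WT 3 the median turned to 0.35, with 14 higher and 7 lower, and without MDA5 KO 2 to 0.63, with 12 higher and 9 lower. Leaving out any of the other 4 libraries of these genotypes gave -0.26 to -0.42.

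SAMHD1 MDA5 DKO against WT sets the loss of both genes against neither. Here the H2A genes Hist1h2ao and Hist1h2ap gave the lowest values in SAMHD1 MDA5 DKO. Hist1h2ao had 2, 7 and 5 reads in SAMHD1 MDA5 DKO, against 7, 11 and 133 in WT, which is 1.39, 6.17 and 4.88 normalised reads against 6.51, 11.3 and 180. These groups were apart, the nearest libraries being SAMHD1 MDA5 DKO 2 and WT 1. The log2 difference was -2.46 ± 1.01 with an adjusted p of 0.153 in limma, and without WT 3 it was -1.05 ± 0.75. In the authors' deposited table Hist1h2ao had a log2 fold change of -1.56 and an adjusted p of 0.0216.

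Hist1h2ap had 2.79, 15.9 and 8.78 normalised reads in SAMHD1 MDA5 DKO, against 18.6, 19.5 and 189 in WT. Again the groups did not overlap and WT 3 was the highest. The log2 difference was -2.31 ± 0.93 with an adjusted p of 0.148 in limma, and without WT 3 it was -1.23 ± 0.80. Hist1h2ao and Hist1h2ap are nearly identical to other members, with 6.22% and 6.64% of their 31-base windows found in no other gene. How their reads were split among copies is therefore uncertain. Hist2h4 had 8.36, 16.7 and 12.7 normalised reads in SAMHD1 MDA5 DKO, with a log2 difference from WT of 2.51 ± 0.94 and an adjusted p of 0.134 in limma. Without WT 3 this difference was 1.91 ± 0.96.

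In SAMHD1 MDA5 DKO against WT, 0 of 21 members passed in limma, against 0.00661% of all genes tested. There were 3 members at an unadjusted p under 0.05, against 27.8% of all genes tested. The authors' deposited table called a single one of its 63 listed members, Hist1h2ao, against 7.42% of its genes. The groups did not overlap for Hist1h1c, which was higher in SAMHD1 MDA5 DKO, against 17.5% of all genes tested, and for 3 members that were lower (Hist1h1d, Hist1h2ao and Hist1h2ap), against 17.1%. The median difference of the members was -0.35 beside 0.07 over all genes tested, with 9 higher and 12 lower. This direction rested on WT 3: without it the median was 0.14, with 12 higher and 9 lower. It was -0.11 without SAMHD1 MDA5 DKO 3, and -0.53 when library 1 of that genotype was left out.

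SAMHD1 MDA5 DKO against SAMHD1 KO adds MDA5 loss where SAMHD1 is missing. Hist1h1c had 552, 630 and 586 normalised reads in SAMHD1 MDA5 DKO, against 599, 1239 and 1354 in SAMHD1 KO. The 3 double knockout libraries lay close together, and SAMHD1 KO 1 lay among them. The log2 difference was -0.77 ± 0.31 with an adjusted p of 0.562 in limma. Without SAMHD1 KO 1 it was -1.14 ± 0.26 with an adjusted p of 0.0556 in limma, and without SAMHD1 KO 3 it was -0.55 ± 0.34. The fit without SAMHD1 KO 1 keeps only SAMHD1 KO 2 and 3, the closest pair, so its standard error and p may be too small. The authors' deposited table gives Hist1h1c a log2 fold change of -0.72 with an adjusted p of 0.0832.

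Hist1h2bc was also highest in SAMHD1 KO 2 and 3, with 593, 383 and 395 normalised reads in SAMHD1 MDA5 DKO, against 375, 1053 and 1124 in SAMHD1 KO. SAMHD1 KO 1 was the lowest of these 6 libraries. The log2 difference was -0.77 ± 0.38 with an adjusted p of 0.579 in limma, and without SAMHD1 KO 1 it was -1.28 ± 0.28. It was -0.49 without SAMHD1 KO 3. Here too the fit without SAMHD1 KO 1 rests on the closest pair of libraries. Hist1h2ap had a log2 difference of -1.60 ± 0.93, and -1.01 without SAMHD1 MDA5 DKO 1. Of 21 members, 0 passed in limma, against 0.0132% of all genes tested. At an unadjusted p under 0.05 there was 1 member, Hist1h1c, against 8.81% of all genes tested. The authors' deposited table called none of its 62 listed members, against 1.83% of its genes. The groups did not overlap for 2 members that were higher in SAMHD1 MDA5 DKO (Hist1h1e and Hist2h4), against 9.14% of all genes tested, and for Hist1h2ao, which was lower, against 9.13%. A lower mean log2 level in SAMHD1 MDA5 DKO was found for 16 of the 21, and the median difference was -0.77 beside 0.02 over all genes tested. It was -0.14 without SAMHD1 MDA5 DKO 3, -0.48 without SAMHD1 KO 2 and -0.49 with SAMHD1 KO 3 left out.

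SAMHD1 KO 2 and 3, the libraries behind these 2 comparisons, also differed from SAMHD1 KO 1 in markers of cells. The summed macrophage markers were 1948600, 5308400 and 5035900 normalised reads in SAMHD1 KO, against 2144600, 1911100 and 2169500 in SAMHD1 MDA5 DKO and 2727000, 3152200 and 673600 in WT. Lyz2 alone had 1457300, 4930200 and 4648000 in SAMHD1 KO. Without Lyz2 the order was the other way, with 491256, 378223 and 387866 in SAMHD1 KO, against 422239, 409653 and 418394 in SAMHD1 MDA5 DKO and 432936, 371590 and 457616 in WT. The 6 mast cell markers summed to 180, 1422 and 1224 in SAMHD1 KO, against 197, 9.69 and 214 in SAMHD1 MDA5 DKO and 130, 12215 and 763 in WT. The 4 haemoglobin genes among the erythroid markers summed to 585, 515 and 372 in SAMHD1 KO, against 0, 1.76 and 84.9 in SAMHD1 MDA5 DKO and 12.1, 91.4 and 518 in WT. Of the mast cell markers, Cpa3 and Cma1 were at 0 in SAMHD1 MDA5 DKO 2, and Fcer1a was at 0 there, in SAMHD1 MDA5 DKO 1 and in MDA5 KO 2. The part of these cells in the histone differences was not tested. In bulk libraries, fewer cells of a type and less RNA per cell cannot be told apart.

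SAMHD1 MDA5 DKO against MDA5 KO asks for SAMHD1 loss where MDA5 is missing. Of 21 members, 0 passed in limma and 0 had an unadjusted p under 0.05, against 0% and 1.02% of all genes tested. The authors' deposited table called none of its 62 listed members, against 0.159% of its genes. Non-overlapping groups were found for Hist1h2ao alone, which was lower in SAMHD1 MDA5 DKO, against 4.1% of all genes tested, and for 0 members that were higher, against 2.93%. It had 1.39, 6.17 and 4.88 normalised reads in SAMHD1 MDA5 DKO, against 11.1, 6.24 and 14.7 in MDA5 KO. The libraries nearest to each other, SAMHD1 MDA5 DKO 2 and MDA5 KO 2, were almost equal, and the log2 difference was -1.26 ± 1.01, or -0.78 without SAMHD1 MDA5 DKO 1. Hist1h4d had 5.57, 0 and 0 in SAMHD1 MDA5 DKO, against 3.42, 7.49 and 18.3 in MDA5 KO, with a log2 difference of -2.26 ± 1.19. Hist1h1c differed by -0.15 ± 0.31 and Hist1h2bc by 0.05 ± 0.38. The median difference of the members was -0.15 beside -0.0020 over all genes tested, and with 1 library left out it ran from -0.30 (without SAMHD1 MDA5 DKO 2) to 0.14 (without SAMHD1 MDA5 DKO 3).

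SAMHD1 KO against MDA5 KO sets both single knockouts side by side. Of 21 members, 0 passed in limma and 0 had an unadjusted p under 0.05, against 0.00661% and 9.53% of all genes tested. The authors' deposited table called none of its 62 listed members, against 0.802% of its genes. Hist1h2bc, with 375, 1053 and 1124 normalised reads in SAMHD1 KO against 591, 348 and 396 in MDA5 KO, had a log2 difference of 0.81 ± 0.38. The groups overlapped because of SAMHD1 KO 1. With SAMHD1 KO 1 left out it was 1.32, and with SAMHD1 KO 3 left out 0.53. Hist1h1c differed by 0.62 ± 0.31, by 0.99 without SAMHD1 KO 1 and by 0.40 without SAMHD1 KO 3. Hist2h2aa2 differed by 1.75 ± 0.92, and by 0.78 without MDA5 KO 2. No window of 31 bases in Hist2h2aa2 is found in that gene alone, so its reads are uncertain. SAMHD1 KO and MDA5 KO libraries were apart for 2 members that were higher in SAMHD1 KO (Hist2h2aa2 and Hist3h2a), against 7.15% of all genes tested, and for Hist2h4, which was lower, against 8.74%.

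The interaction, the effect of MDA5 loss without SAMHD1 minus its effect with SAMHD1, was fitted in the same model. Hist1h1c had the smallest p, with an interaction of -1.38 ± 0.44 on the log2 scale and an adjusted p of 0.894 in limma. Its 2 arms were -0.77 ± 0.31 for SAMHD1 MDA5 DKO minus SAMHD1 KO and 0.62 ± 0.31 for MDA5 KO minus WT. Hist1h4i had an interaction of 1.30 ± 0.63 and Hist3h2ba of -2.82 ± 1.40, and without WT 3 these were 0.75 and -1.55. Of the 21 members, 0 passed in limma, against 0% of all genes tested. At an unadjusted p under 0.05 there was 1, Hist1h1c, against 3.21% of all genes tested. The 6 pairwise comparisons and the interaction share libraries, so that one library can move several of them at once.

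**Figure D5:**
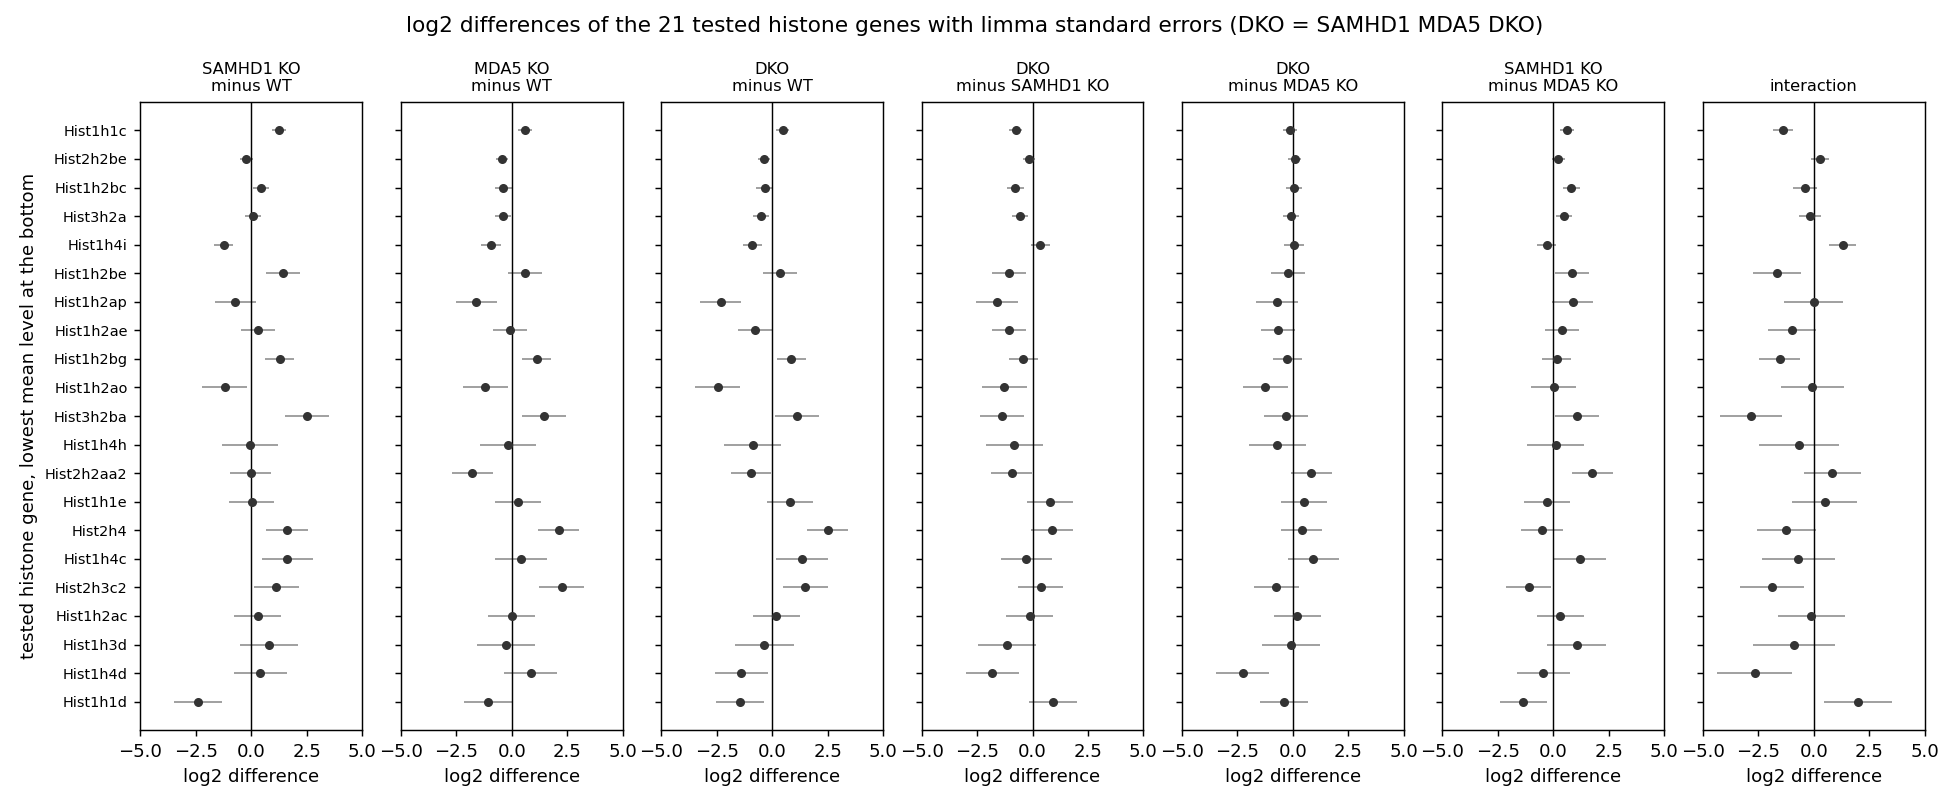
log2 differences (points) with limma standard errors (lines) of the 21 tested histone genes, from the most read at the top to the least read at the bottom, in the 6 pairwise comparisons and the interaction, with DKO for SAMHD1 MDA5 DKO. In a pairwise comparison the standard errors run from 0.28 for Hist2h2be to 1.32 for Hist1h3d, and 0 of the points passed the test.

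The spread within genotypes set the precision for these genes. For 41 of the 65 members, the pooled SD within genotypes was more than 2 times the value that counting error alone gives, with a median ratio of 2.45. Among the 21 tested members this held for 20. The spread was uneven between genotypes. Hist1h2ao had an SD of 98.6 normalised reads in WT, against 1.71 in SAMHD1 KO, 4.23 in MDA5 KO and 2.47 in SAMHD1 MDA5 DKO. For Hist1h1c the SD was largest in SAMHD1 KO, at 407. The fit uses the same spread per gene for all genotypes, so a wide genotype also widens the errors of comparisons without it. The standard error of a pairwise log2 difference was 0.31 for Hist1h1c, and its median over the 21 was 0.94. On the deposited log2 library columns, from which a difference between 2 library sets had been subtracted, limma within each table called 0 members in all 6 pairwise comparisons. It called 8.08% of all genes in SAMHD1 MDA5 DKO against WT, 0.0132% in SAMHD1 KO against WT, 0.0529% in SAMHD1 MDA5 DKO against SAMHD1 KO and 0% in the other 3. At an unadjusted p under 0.05 there were 5, 4 and 4 of 21 members in those 3 comparisons, against 38.3%, 19.8% and 22.3% of all genes, and 0 in the rest. There Hist1h1c differed by 1.10 ± 0.33 in SAMHD1 KO against WT and Hist1h2ao by -0.99 ± 0.40 in SAMHD1 MDA5 DKO against WT. The subtraction took no account of genotype, and the smaller set holds no MDA5 KO library, so part of a genotype difference can be lost. In MDA5 KO against WT, Hist1h2ao differed by 0.04 ± 0.14 on these columns and by -1.20 ± 1.01 in the fit on normalised reads. The p-values on these columns do not allow for the subtraction.

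With array quality weights, which let limma give each library its own weight, members were called in 6 of the 7 comparisons, and so was a large share of all genes. In SAMHD1 KO against WT 9 members passed, against 45.1% of all genes tested. In MDA5 KO against WT 5 passed, against 29%, and in SAMHD1 MDA5 DKO against WT 2 passed, against 38.1%. In SAMHD1 MDA5 DKO against SAMHD1 KO 7 passed, against 44.9%, and in SAMHD1 KO against MDA5 KO 5 passed, against 44.4%. In SAMHD1 MDA5 DKO against MDA5 KO 0 passed, against 0.0132%, and in the interaction 3 passed, against 8.81%. This fit gave WT 3 the lowest weight, 0.0558, and SAMHD1 KO 3 the highest, 9.1, and its weight estimate stopped before it converged.

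Genes that make, process and place histones were compared in the same fit. Of 20 genes of histone mRNA transcription and 3′ processing, 0 passed in any of the 7 comparisons, and the same held for 21 chaperone and assembly genes and for 30 S phase and cell cycle genes. Of 13 replication-independent variant genes with a row, 11 were tested and 0 passed. At an unadjusted p under 0.05, 10 of the 30 S phase genes were lower in SAMHD1 KO than in WT and 12 were lower in SAMHD1 KO than in MDA5 KO. The shares of all genes at that p, in either direction, were 15.4% and 9.53%. The median differences of this list were -1.17 and -1.29, beside 0.03 and -0.01 over all genes tested. By library the list's mean log2 level was 6.24, 8.47 and 8.42 in SAMHD1 KO, against 8.13, 8.33 and 10.3 in WT, so that SAMHD1 KO 2 and 3 lay above WT 1 and 2. Without SAMHD1 KO 1 the median against WT was -0.49 with 2 genes lower at that p, and without WT 3 it was -0.45 with 1. Against MDA5 KO the median was -0.49 without SAMHD1 KO 1, with 7 genes lower at that p.

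With WT 3 left out, the differences of Slbp, Npat and Pcna from WT shrank or turned. Slbp had log2 differences from WT of -0.36 ± 0.28 in SAMHD1 MDA5 DKO, -0.49 ± 0.28 in SAMHD1 KO and -0.29 ± 0.28 in MDA5 KO. Without WT 3 these were 0.02 ± 0.17, -0.11 ± 0.17 and 0.09 ± 0.17. Npat, the coactivator of histone transcription, had 0.40 ± 0.23, 0.20 ± 0.23 and 0.50 ± 0.23 in the same order, and 0.14 ± 0.16, -0.06 ± 0.16 and 0.24 ± 0.16 without WT 3. Mki67 differed from WT by 1.72 ± 0.49 in MDA5 KO, with an adjusted p of 0.196 in limma. Pcna differed from WT by -0.82 ± 0.39 in SAMHD1 MDA5 DKO, and by -0.22 ± 0.18 without WT 3. Among the chaperones, Chaf1a, a subunit of the factor that loads H3 and H4 onto new DNA, was -1.57 ± 0.48 in SAMHD1 KO against MDA5 KO.

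The genes listed as replication-independent variants had median differences from WT of -0.64 in SAMHD1 MDA5 DKO, -0.19 in SAMHD1 KO and -0.36 in MDA5 KO. Without WT 3 the medians were -0.36, 0.02 and -0.36. At an unadjusted p under 0.05, 5 of 11 were lower in SAMHD1 MDA5 DKO, 1 in SAMHD1 KO and 5 in MDA5 KO, against 27.8%, 15.4% and 22.4% of all genes in either direction. Without WT 3 the counts were 4, 1 and 0. Without MDA5 KO 1 or 2 the count in MDA5 KO was 2, and without MDA5 KO 3 it was 3. H2afz, an H2A variant, had 1014, 1104 and 969 normalised reads in SAMHD1 MDA5 DKO, against 1552, 1683 and 5747 in WT, with a log2 difference of -1.26 ± 0.42 and an adjusted p of 0.127 in limma. It was -0.65 ± 0.25 without WT 3. All SAMHD1 MDA5 DKO libraries lay below all WT libraries, and WT 3 was again the highest library. H3f3a, an H3.3 gene, had a log2 difference of -1.15 ± 0.35 in the same comparison, and -0.72 ± 0.27 without WT 3. H1fx, a linker histone variant, had 0 to 0.697 normalised reads in SAMHD1 MDA5 DKO, against 16.4 to 27.0 in WT. Its log2 difference there was -4.13 ± 1.14 with an adjusted p of 0.127 in limma. It was low in the other knockouts too, with -4.02 ± 1.14 in SAMHD1 KO and -2.98 ± 1.14 in MDA5 KO against WT. The adjusted p-values in limma were 0.312 and 0.196. SAMHD1 MDA5 DKO differed from SAMHD1 KO by -0.11 ± 1.14.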

How the data were processed

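RNA sequencing values of 12 libraries of mouse peritoneal macrophages, 3 per genotype, were analysed. Per the labels' protocols, reads were aligned with pBWA 0.5.9-r32-MPI-patch2 to mm10 and summed per gene with bedtools 2.16.2 on Ensembl Gene 61. The submitters' processing notes name STAR, Salmon, R 4.1.2, DESeq2, GRCm38 and mm10, and which of these made the 6 tables is not given in the sources used here. The deposited columns of single libraries are on a log2 scale, which the values show to be variance-stabilised, and have had the difference between 2 sets of libraries (WT 3, SAMHD1 KO 2 and SAMHD1 MDA5 DKO 3 against the other 9) subtracted gene by gene. The deposited mean column is a signal on a linear scale (size-factor scaled reads averaged over the libraries of a table). The deposited p-value columns and log2 fold changes are the authors' own, as are the test statistic and weight, deposited as score columns and not used, and the GC content, deposited in percent and not used. Their fold change for SAMHD1 KO and MDA5 KO is deposited as MDA5 KO minus SAMHD1 KO, and its sign was turned here.

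Whole reads were solved from the log2 columns and means of the 6 tables together, within 0.05 reads of a whole number, for 33641 of 33641 genes. Because no deposited column holds counts, no count model was fitted. Totals ran from 33234361 to 58345425 reads. The limit of 3 reads for a 0 covers counting error only. Normalised reads are reads over a size factor per library (median of ratios), and log2(value + 1) was taken, which understates changes of low genes. limma 3.58.1 in R 4.3.3 (trend, robust; genotype only; all 12 libraries) tested 15130 genes with Benjamini-Hochberg adjustment at 0.05. The fit was tested on simulated data. Stem-loops and shared 31-base windows were searched in GENCODE M21 transcripts, and promoter windows are RefSeq's on GRCm38.p6.

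Members named are the 3 most read of each class, the 3 with the smallest p per comparison and a list of members known for polyadenylated or testis messages. From each pathway list, at most 4 genes by smallest p could be named, with Slbp, Npat, Mki67 and Pcna in any case. Other members named for their sequence, level per kb or single-library reads were chosen after their values were seen. Members, lists and tests were chosen with earlier results of these data known. Alternatives were other scalings, pseudocounts and filters, a replicate block, the library set, library weights, the deposited columns and leaving out each library. Leaving libraries out of the pathway lists, and Lyz2 out of the macrophage markers, was chosen after seeing the data. Of the erythroid marker list, 1 gene is not reported here.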

Additional observations from a re-analysis of the deposited data

How the results depend on the processing

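For the members called, 20 of 21 other settings gave 0 in every comparison they could fit, as did the results given above. They were both other scalings, no filter, pseudocounts of 0.5 and 5, the library set as a term, the deposited log2 columns, a replicate block and each of 12 left-out libraries (lowest 0, highest 0). The exception was limma with array quality weights, which called 9 members in SAMHD1 KO against WT, 5 in MDA5 KO against WT, 2 in SAMHD1 MDA5 DKO against WT, 7 in SAMHD1 MDA5 DKO against SAMHD1 KO, 0 in SAMHD1 MDA5 DKO against MDA5 KO, 5 in SAMHD1 KO against MDA5 KO and 3 in the interaction. It weighted WT 3 at 0.0558 and SAMHD1 KO 3 at 9.1, the weight estimate stopped before it converged, and it called 45.1% of all genes in SAMHD1 KO against WT. The fit behind the results given above called at most 2 of all 15130 genes tested in any comparison. On the deposited columns, where the p-values do not allow for the subtracted difference, the share was at most 8.08%. With so few genes called, 0 of 21 members says little about the histone genes themselves.

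The 21 named differences gave 438 values over the other settings together, of which 435 kept their direction. With array weights Hist2h3c2 was -0.12 and Hist2h4 -0.018 in MDA5 KO against WT. With 1 library left out, Hist2h2aa2 ran from -0.15 (without MDA5 KO 2) to 1.33 (without MDA5 KO 1) in SAMHD1 MDA5 DKO against MDA5 KO. The cause was not tested. Library totals moved the median of all genes by 0.11 in SAMHD1 MDA5 DKO against SAMHD1 KO and by 0.10 in the interaction.

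Members detected depend on the minimum: at 10 reads the means were 12.7, 13.7, 16.3 and 17.3 in SAMHD1 MDA5 DKO, SAMHD1 KO, MDA5 KO and WT, where 1 read gave 27 to 51 members a library. Of 18 pairs of libraries with the same number, 8 correlated above 0.1 (range -0.0566 to 0.337), all of them numbered 1 or 3. No comparison had all 3 of its pairs above 0.1, so the numbers were not taken to pair samples, and the replicate block called 0 members. For 44 members the depth allowed no test.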

Other observations

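Other values of the histone genes fall outside the comparisons. Single libraries held many of the reads of some members that were too rare to test. Hist1h2bj had 26 of its 33 reads in MDA5 KO 2, Hist1h4k had 33 of 75 in SAMHD1 KO 3, Hist1h2bn had 52 of 65 in WT 3, and Hist1h1a had 28 of 49 in WT 3 and 15 in MDA5 KO 2. Of the 44 members not tested, 14 were highest in WT 3, and the share among all genes was not counted.

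WT 3 was not uniformly high. It had 0 reads for 28 members, among them Hist3h2ba, which had 8 to 47 reads in the other 11 libraries, and Hist2h4. Its Hist1h1c level of 295 normalised reads was the lowest of the 12 libraries, while its Hist2h2be level of 1150 was the highest.

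SAMHD1 KO 2 belongs to the 3 libraries whose values had been shifted in the deposited columns, and SAMHD1 KO 3 does not, although these were the closest pair of libraries before the shift. Within the libraries outside that set, Hist1h1c differed by 0.82 on the log2 scale in SAMHD1 KO against WT, and within the set, with 1 library each, by 2.07.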
